A study of Mus musculus with 16 samples.

Results

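The 9 genes C3, C4b, C7, Serping1, Hp, Serpina3n, Lcn2, S100a8 and S100a9 were read from the count table of 33399 genes by their GENCODE M21 symbols, and all 9 passed the filter on low counts that left 16400 genes for testing. They are complement components and a complement inhibitor, acute phase proteins and neutrophil alarmins. RNA came from the ventricles of wild-type C57BL/6 mice of both sexes. Chronic kidney disease (CKD) was induced from 8 weeks of age with chow holding 0.25% adenine, alternated with plain chow over 6 weeks, and controls ate plain chow for the same time. The 16 libraries were 4 of male controls, 4 of males with CKD, 4 of female controls and 4 of females with CKD, each from whole ventricle, so that all heart cell types and the blood left in the tissue contribute. Library totals ran from 10203707 to 13626039 counts.

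Complement is a cascade of blood and tissue proteins in which C1, C4 and C2 lead to cleavage of C3, and C5 to C9 then assemble a pore in membranes. The liver makes most of it, and fibroblasts, macrophages and other cells of the heart make some locally. Acute phase proteins are made mainly by the liver under interleukin-6 and interleukin-1, which act through STAT3, C/EBP factors and NF-kB. S100a8 and S100a9 encode the calcium-binding pair calprotectin, the most abundant cytosolic protein of neutrophils, and Lcn2 encodes the siderophore-binding neutrophil lipocalin, which stressed epithelium and heart cells also make. CKD is a state of low-grade inflammation, and the circulating forms of several of these proteins are read as its markers.

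In GENCODE M21 (GRCm38, chromosome then start and end), the complement genes lie at separate loci: C3 at 17:57203970-57228136, C4b at 17:34728380-34743882, C7 at 15:4988762-5063740 and Serping1 at 2:84765387-84775444. The acute phase genes are Hp at 8:109575128-109579172 and Serpina3n at 12:104406729-104414329. The neutrophil genes are Lcn2 at 2:32384633-32388252, S100a8 at 3:90668978-90670035 and S100a9 at 3:90692632-90695721. All but Serpina3n and S100a8 lie on the minus strand, all 9 are protein-coding, and none has exons overlapped by exons of an antisense gene. Values are counts over all exons of a gene.

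Levels are given as CPM, counts scaled to a common library total after TMM normalization. A difference was called when edgeR's quasi-likelihood test gave a Benjamini-Hochberg adjusted p under 0.05 over all 16400 genes. Per kilobase of exon, Serping1 and C3 stood first, with means of 42.3 ± 8.32 and 35.7 ± 7.89 CPM per kb (SD, n = 16). Serping1 was above C3 in 13 of 16 libraries, and C3 was above S100a9, the next gene, in all 16. The other 7 genes lay between 7.67 CPM per kb for S100a9 and 1.53 for C7. Their neighbours in this order did not separate: S100a9 was above Serpina3n in 6 of 16 libraries and C4b above Lcn2 in 11.

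The genes with the clearest patterns below are S100a8, S100a9, Serpina3n and C7, and their upstream sequence is shown because the first 3 shared an order among the libraries of each group and C7 differed by sex. The stretches are those of RefSeq windows (GRCm38.p6, 250 bases before to 50 after the RefSeq start) that lie before the start and outside every exon of the gene in GENCODE M21, on the gene's own strand. Capitals mark matches, on either strand, to TTCNNNGAA (a STAT motif), TTGCNNAA (a C/EBP motif), GGGNNTTTC (part of an NF-kB motif) or the canonical TATA box.
S100a8, chr3:90668821-90668977, plus strand: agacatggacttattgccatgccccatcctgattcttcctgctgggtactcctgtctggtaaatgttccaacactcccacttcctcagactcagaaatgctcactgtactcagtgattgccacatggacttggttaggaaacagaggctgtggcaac
S100a9, chr3:90695722-90695971, minus strand: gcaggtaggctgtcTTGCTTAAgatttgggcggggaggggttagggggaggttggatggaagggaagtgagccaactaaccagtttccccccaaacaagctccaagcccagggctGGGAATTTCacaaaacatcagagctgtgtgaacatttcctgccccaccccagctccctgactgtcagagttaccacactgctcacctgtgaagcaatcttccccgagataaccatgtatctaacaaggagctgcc
Serpina3n, chr12:104406458-104406707, plus strand: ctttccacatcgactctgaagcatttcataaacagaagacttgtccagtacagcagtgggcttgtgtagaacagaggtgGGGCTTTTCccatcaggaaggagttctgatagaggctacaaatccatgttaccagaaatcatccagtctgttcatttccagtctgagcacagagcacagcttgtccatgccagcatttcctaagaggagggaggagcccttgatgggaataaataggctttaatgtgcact
C7, chr15:5063774-5064023, minus strand: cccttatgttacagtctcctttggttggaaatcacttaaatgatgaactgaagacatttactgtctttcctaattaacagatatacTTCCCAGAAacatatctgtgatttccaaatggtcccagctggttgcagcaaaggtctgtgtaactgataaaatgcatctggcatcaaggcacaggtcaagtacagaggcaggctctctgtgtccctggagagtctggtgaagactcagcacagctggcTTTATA

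S100a9 held both a C/EBP and an NF-kB match, in letters TTGCTTAA and GGGAATTTC, and Serpina3n held an NF-kB match, GGGCTTTTC. The stretch of C7 held a STAT match, TTCCCAGAA, and a TATA box on the other strand. No match fell in the printed stretch of S100a8, whose TATA box lies 30 bases before the RefSeq start, inside an exon of another annotated transcript of the gene. Of 32851 windows of 300 bases in the same table, 10.8% held the C/EBP letters, 4.36% the NF-kB letters, 8.3% the STAT letters and 13.6% the TATA box. Windows were found for 6 of the 9 genes, C3 and Lcn2 being the others. The windows of C3 and Lcn2 each held a C/EBP match too, and that of C3 also held a TATA box.

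**Figure D1:**
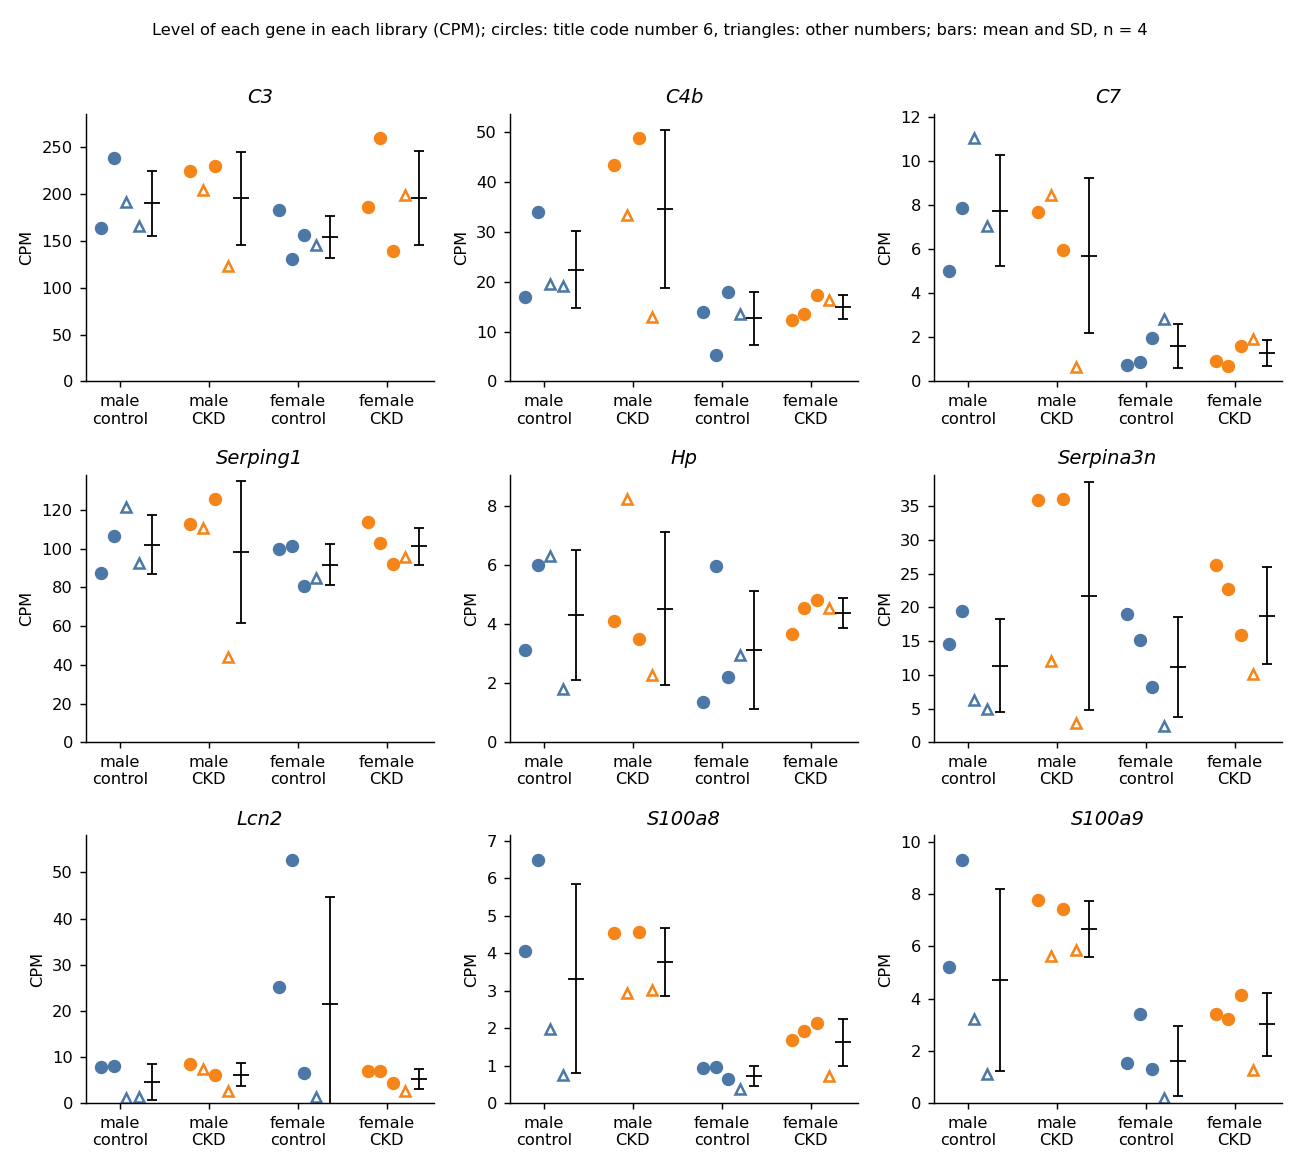
Level in CPM (y axis) of each of the 9 genes in each of the 16 libraries, by sex and diet (x axis, blue control, orange CKD); circles are libraries whose title code number is 6, triangles the others, and black bars the mean and SD of 4 libraries, cut at 0 for Lcn2. C7 sits between 4.99 and 11.1 CPM in male controls and between 0.71 and 2.86 CPM in both female groups, while circles lie above triangles in every group for Serpina3n, S100a8 and S100a9.

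The first comparison asked whether CKD changed the ventricular level of these genes. None of the 9 was called between 8 CKD and 8 control libraries, where 0.0854% of the 16400 genes tested were called. In this edgeR fit none had an unadjusted p under 0.05 either, against 15.4% of all genes. Neither DESeq2 nor limma-voom called any of them, where they called 2.43% and 1.21% of genes. Other settings did give unadjusted p under 0.05. In limma-voom these were 0.0085 for C4b, 0.0183 for S100a9, 0.0276 for Serpina3n and 0.0363 for Hp. In edgeR with the title code number as a factor they were 0.0125 for Serpina3n, 0.0221 for S100a9 and 0.0452 for S100a8. The log2 difference was above 0 for 7 genes and below 0 for 2, with a median of 0.27 over the 9 and 0.002 over all genes tested. The groups overlapped for every gene.

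Among the complement genes, C3, whose cleavage all 3 activation routes share, had 172 ± 33.1 CPM in controls and 195 ± 46.0 in CKD (SD, n = 8 each), a log2 difference of 0.19 ± 0.15 (SE). Its lowest library was replicate 4 of the males with CKD, at 123 CPM. Serping1, the C1 inhibitor, was at 96.9 ± 13.3 CPM in controls and 99.7 ± 24.9 in CKD. The log2 difference of Serping1 was 0.04, with a 95% interval of -0.29 to 0.38, and 1 library, again male CKD replicate 4 at 44.2 CPM, set the wider spread in CKD. In the 4 male CKD libraries C4b, which carries the cascade from C1 to C3, stood at 43.5, 33.4, 48.9 and 12.9 CPM. The 4 male controls gave 17.0, 34.0, 19.6 and 19.2 CPM. Male replicates 1 and 3 with CKD were thus above every male control and replicate 4 below every one. The log2 difference for C4b in males was 0.63 ± 0.36 (unadjusted p = 0.105, adjusted p = 0.806), where 0% of genes were called. In females it was 0.24 ± 0.37.

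C4a shares 34.6% of the 50-base stretches of C4b's exons, so reads may be split between the copies and counts of both are uncertain. C4a was at 3.55 ± 1.39 CPM in controls and 5.64 ± 3.09 in CKD, a log2 difference of 0.58 ± 0.25 (adjusted p = 0.278). In males the difference of C4a was 0.96 ± 0.33 (adjusted p = 0.616) and in females 0.15 ± 0.35. C7, a part of the membrane pore, gave -0.37 ± 0.37 (adjusted p = 0.649). It was at -0.14 without male CKD replicate 4, so 1 library carried much of that value.

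The acute phase genes were Hp, encoding the hemoglobin-binding haptoglobin, and Serpina3n, a secreted serine protease inhibitor. Serpina3n had the largest positive difference of the 9, 0.83 ± 0.45 (95% interval -0.11 to 1.78, adjusted p = 0.384). Male controls gave 14.6, 19.5, 6.32 and 5.0 CPM and males with CKD 35.9, 12.1, 36.1 and 2.84 CPM. Female controls gave 19.0, 15.2, 8.28 and 2.36 CPM and females with CKD 26.3, 22.7, 15.9 and 10.2 CPM. Of the 8 CKD libraries 4 were above all 8 controls, yet the lowest male of all was also one with CKD. Serpina3n shares 6.9% of its 50-base stretches with other genes, Serpina3e-ps the most at 2.68%, so its counts carry that doubt. Hp spanned 1.36 to 8.24 CPM over all libraries, with a log2 difference of 0.27 ± 0.31 (adjusted p = 0.686). In females with CKD it stayed within 3.65 to 4.82 CPM, a coefficient of variation of 11.6%, against 64.1% in female controls. Those CKD values rest on 43 to 65 counts. Female control replicate 2 stood at 5.96 CPM, against 1.36 to 2.96 CPM in the other female controls. The difference in spread was not tested.

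**Figure D2:**
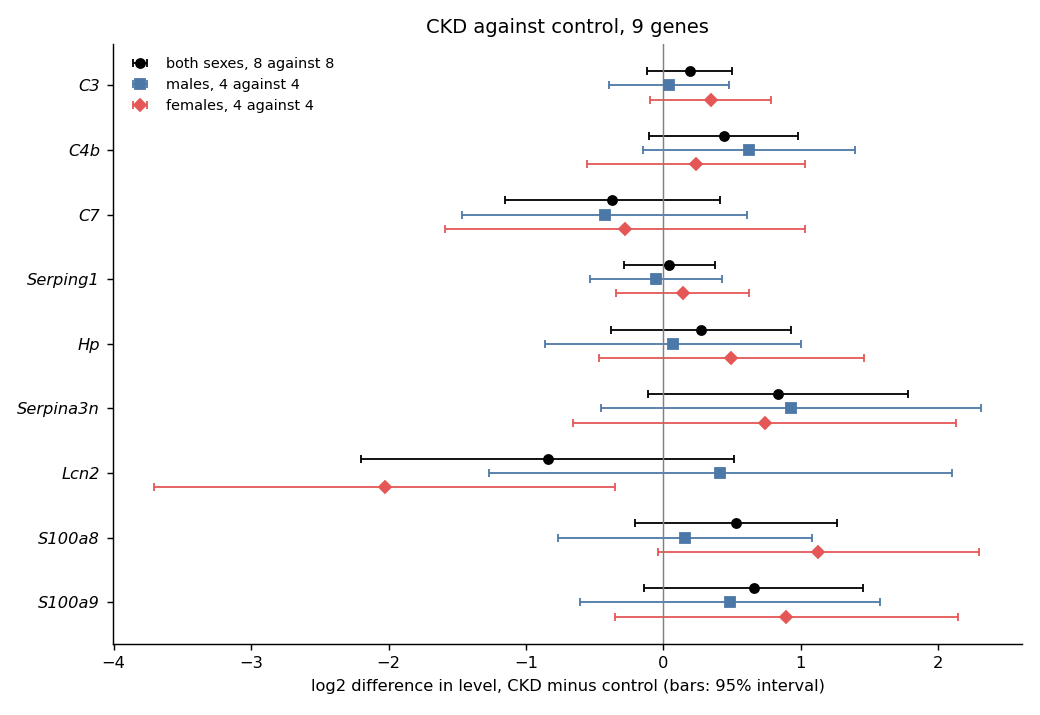
Log2 difference in level between CKD and control (x axis, 95% intervals as bars) for the 9 genes (y axis), in both sexes (black circles, 8 against 8), males (blue squares, 4 against 4) and females (red diamonds, 4 against 4). The interval excludes 0 only for Lcn2 in females, at -2.03, a difference that was not called.

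The CKD difference between the sexes had an unadjusted p under 0.05 for Lcn2 alone of the 9 genes in the main edgeR fit. There 276 of 16400 genes did. Other settings varied. In edgeR, S100a8 gave 0.0059 with libraries of title code number 6 alone and 0.0281 with that number as a factor. C4b gave 0.0124 without male CKD 4 and female control 2. Lcn2 gave 0.137 in limma-voom and 0.155 in edgeR without female control replicate 2. None of these was called. For Lcn2, female controls stood at 25.2, 52.7, 6.55 and 1.38 CPM and females with CKD at 6.96, 7.07, 4.37 and 2.68 CPM. The first 2 female controls were thus above every other library of the series, while the last was below every female with CKD. The log2 difference in females was -2.03 ± 0.79 (adjusted p = 0.504), where 0.0549% of genes were called and 8.34% had an unadjusted p under 0.05. Without female control replicate 2 it was -1.08. Males gave 0.41 ± 0.80, and -0.11 among libraries of title code number 6 alone. The difference between the sexes was -2.44 ± 1.12 (unadjusted p = 0.0439, adjusted p = 1.0), where 0% of genes were called, and -1.49 without that library.

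The alarmin pair was low in all libraries, with at most 90 counts for S100a8 and 129 for S100a9. In female controls S100a8 stood at 0.93, 0.96, 0.66 and 0.39 CPM and in females with CKD at 1.70, 1.92, 2.15 and 0.74 CPM. The first 3 females with CKD were above every female control. The log2 difference of S100a8 in females was 1.13 ± 0.55 (adjusted p = 0.614), and that of S100a9 was 0.89 ± 0.59. In males the 2 genes gave 0.16 ± 0.44 and 0.48 ± 0.52, and neither difference between the sexes was called.

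The 9 genes sit in a wider pathway list, of which 33 of 48 complement genes, C3, C4b, C7 and Serping1 included, could be tested. None of the 33 was called in CKD by edgeR, 13 had a log2 difference above 0 and 20 below, with a median of -0.08. At an unadjusted p under 0.05 there were 1 higher and 4 lower, or 5 of 33, a share no greater than the 15.4% of all genes. DESeq2 called Cd93, and limma-voom called none. The proteases and recognition proteins that start the cascade, led by C1qa at 32.9 CPM per kb, gave 2 above 0 and 7 below. The most abundant genes of the other roles per kilobase were C3 itself, C8g at 2.36, the soluble regulator Clu, clusterin, at 153, the membrane regulator Cd59a at 89.8 and the receptor Cd93 at 12.8 CPM per kb. Clu was at 480 CPM in controls and 574 in CKD, a log2 difference of 0.26 (adjusted p = 0.35). The 3 lowest unadjusted p values belonged to genes that were lower in CKD. Cd93, a C1q receptor family member of endothelium, gave -0.62 ± 0.18 (adjusted p = 0.123). Cfp, properdin, which steadies the alternative pathway convertase, gave -0.41 ± 0.13 (adjusted p = 0.139), and the integrin chain Itgax gave -0.76 ± 0.25 (adjusted p = 0.164). Listed terminal genes other than C7 and C8g were near the floor, with C6 and C8a at most 0.28 and 0.07 CPM.

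**Figure D3:**
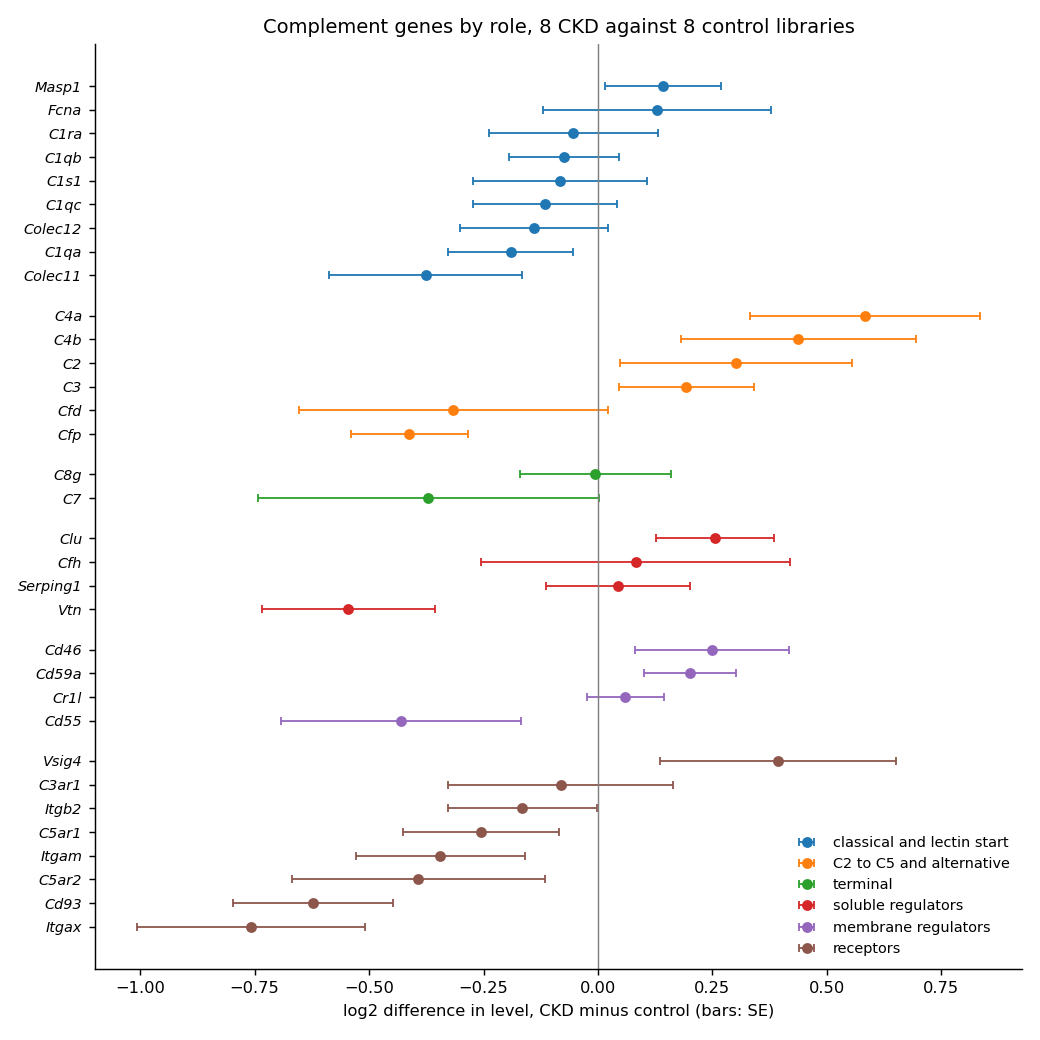
Log2 difference in level between 8 CKD and 8 control libraries (x axis, SE as bars) for the 33 tested complement genes (y axis), coloured by role in the cascade. C4a and C4b lie farthest to the right, at 0.58 and 0.44, and Itgax and Cd93 farthest to the left; none was called by edgeR.

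Of 36 listed acute phase genes 15 could be tested, and none was called by edgeR, DESeq2 or limma-voom, with 10 above 0, 5 below and a median of 0.22. At an unadjusted p under 0.05 there was 1, Mt1, a metal-binding metallothionein and the most abundant of these proteins per kilobase, at 0.37 ± 0.12 (adjusted p = 0.168). Cp, ceruloplasmin, followed with 0.41 (adjusted p = 0.345), then A2m with -0.61 (adjusted p = 0.382). The serum amyloid genes Saa1 and Saa2 never exceeded 0.09 and 0.07 CPM, and Crp not 0.17. Among 25 testable genes of the inducing axis, edgeR called none, and at an unadjusted p under 0.05 there was 1. That gene, Nfkbia, the NF-kB inhibitor and NF-kB target, was at 43.0 CPM in controls and 64.8 in CKD, a log2 difference of 0.59 ± 0.17 (adjusted p = 0.123), and DESeq2 called it. Osmr, an oncostatin M receptor chain, gave 0.37 (adjusted p = 0.397), and Nfkb1 -0.23 (adjusted p = 0.437). Il6 itself reached at most 0.17 CPM, while its signal transducer Il6st had 23.8 CPM per kb, Jak1 23.8 and Il33, the most abundant cytokine listed, 2.74. Of 9 testable receptors and clearance genes, edgeR, DESeq2 and limma-voom called none and none had an unadjusted p under 0.05 in edgeR. The lowest p values were those of Tlr4, a calprotectin receptor, at 0.35 (adjusted p = 0.424), the haptoglobin-hemoglobin receptor Cd163 at 0.34 (adjusted p = 0.493) and Lrp1 at -0.41 (adjusted p = 0.518). Cd36 led those of calprotectin at 622 CPM per kb and Slc22a17 those of Lcn2 at 0.62. Lrp1, which the list placed beside Cd163, stood at 4.64 CPM per kb.

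Female and male ventricles were then compared. In this comparison, which was added after the data were seen, C7 fell from 6.73 ± 3.03 CPM in males to 1.46 ± 0.77 in females (SD, n = 8 each), a log2 difference of -2.20 ± 0.38 (adjusted p = 0.0284). It was the only one of the 9 called, where 0.171% of genes were. Male controls gave 4.99, 7.86, 11.1 and 7.07 CPM and males with CKD 7.69, 8.48, 5.99 and 0.66 CPM. Female controls gave 0.76, 0.88, 1.97 and 2.86 CPM and females with CKD 0.93, 0.71, 1.63 and 1.94 CPM. All males but CKD replicate 4 were above all females, and that male was below them all. No member separated the 8 males from the 8 females completely, as 0.28% of all genes did.

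The C7 call was narrow by some settings. DESeq2 gave an adjusted p of 1.3e-05 and the fit without male CKD 4 and female control 2 gave 0.00055. Leaving out 1 library at a time kept the difference between -2.38 and -2.08, yet took the adjusted p past 0.05 for 9 of the 16 libraries, to at most 0.0907 without male CKD replicate 1. Those 9 were male control 3 and 4, male CKD 1 and 2, female control 1 and 2, and female CKD 1, 2 and 3. With the title code number as a factor, the adjusted p was 0.0698 and the difference -2.25. Each diet arm gave a like value, -2.27 ± 0.55 in controls (adjusted p = 0.639, with 0.0366% of genes called) and -2.12 ± 0.57 in CKD, where 0.0427% were called. In controls the male and female values of C7 did not overlap, as for 3.93% of genes.

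The alarmins and C4b were lower in females by values that were not called. S100a8 was at 3.55 ± 1.76 CPM in males and 1.18 ± 0.65 in females, a log2 difference of -1.63 ± 0.35 (adjusted p = 0.0594). For S100a9 the levels were 5.7 ± 2.6 and 2.32 ± 1.4 CPM, a difference of -1.33 ± 0.38 (adjusted p = 0.0713). Males with CKD held 4.54, 2.94, 4.56 and 3.03 CPM of S100a8 and 7.77, 5.63, 7.42 and 5.88 CPM of S100a9. Among mice with CKD both genes were higher in each male than in each female, and 11% of all genes separated those sexes in either direction. C4b was at 28.6 ± 13.3 and 13.8 ± 4.01 CPM, a difference of -1.02 ± 0.26 (adjusted p = 0.0632). DESeq2 and limma-voom each called C7, C4b, S100a8 and S100a9 lower in females, where they called 9.03% and 16.6% of all genes. At an unadjusted p under 0.05 edgeR gave those same 4 genes, beside 25.2% of all genes. Lcn2 went the other way, at 1.01 ± 0.65 (adjusted p = 0.334), and 0.46 without female control replicate 2.

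**Figure D4:**
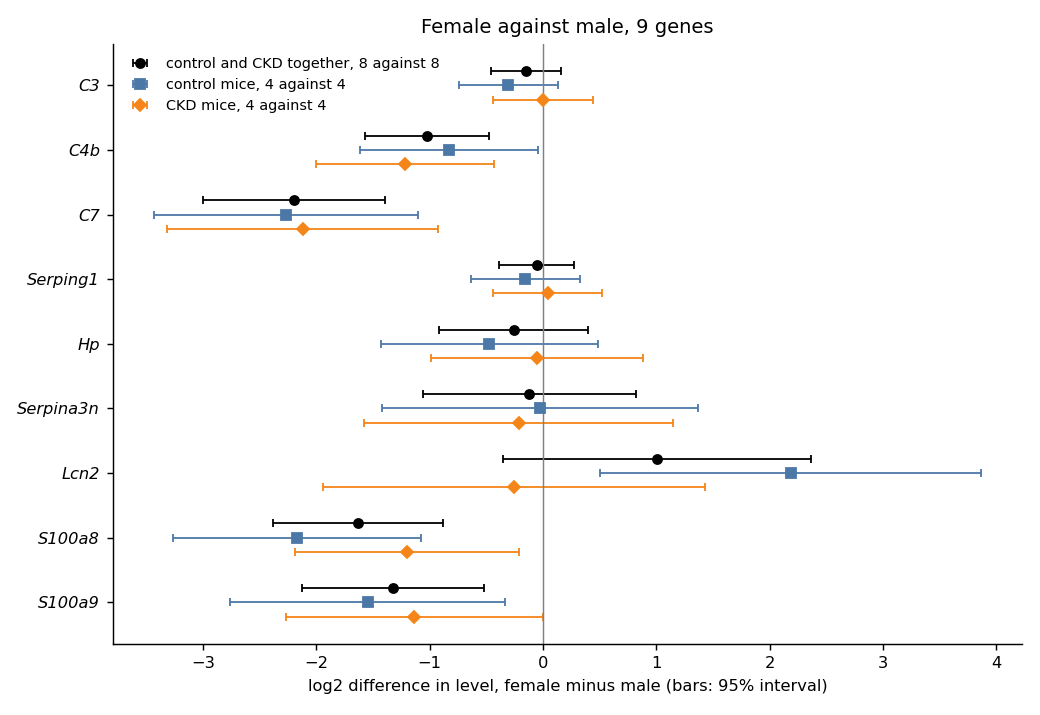
Log2 difference in level between females and males (x axis, 95% intervals as bars) for the 9 genes (y axis), over both diets (black circles, 8 against 8), in controls (blue squares, 4 against 4) and in CKD (orange diamonds, 4 against 4). C7 lies between -2.27 and -2.12 in all 3 fits, and C4b, S100a8 and S100a9 lie left of 0 in each, while Lcn2 lies right of 0 in controls and over both diets.

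Markers of several cell types were also compared between the sexes, and no marker whose difference is given here was called by edgeR. In this comparison 25.2% of all genes had an unadjusted p under 0.05 in edgeR. DESeq2 and limma-voom called 9.03% and 16.6% of all genes. Of 26 neutrophil markers listed, which include S100a8, S100a9 and Lcn2, 7 could be tested. Csf3r, the granulocyte colony-stimulating factor receptor, gave -1.02 ± 0.28 in females (adjusted p = 0.0675), the gelatinase Mmp9 -1.10 ± 0.26 (adjusted p = 0.0632), and the chemokine receptor Cxcr2 -0.87 ± 0.41. Ly6c2, which monocytes also express, went the other way at 0.37 ± 0.15 (adjusted p = 0.134). Ly6g, Camp, Ngp, Ltf, Elane, Mpo, Cd177 and Wfdc21, most of them genes of the neutrophil surface or its granules, had at most 3 counts in any library. These defining neutrophil transcripts were thus at or near 0 in all 16 libraries. The 22 other neutrophil markers in the table summed to 23.5 to 49.5 CPM in males and 32.7 to 52.6 CPM in females, ranges that overlapped. Its medians were 32.5 and 46.4 CPM in control and CKD males and 39.2 and 48.6 CPM in control and CKD females. Of these 22 genes 4 could be tested. Csf3r, Mmp9 and Cxcr2 had means of 2.28, 1.16 and 0.67 CPM over all 16 libraries, so most of the sum came from other genes. The sum therefore cannot show whether neutrophil transcripts were lower in females. All 6 testable red-cell genes were higher in females at an unadjusted p under 0.05, with a median log2 difference of 1.04, none of them called by edgeR, all 6 by DESeq2 and none by limma-voom. Of 8 mesothelial and epicardial markers 2 were lower in females at an unadjusted p under 0.05, Lrrn4 at -0.87 ± 0.18 (adjusted p = 0.0594) and Upk3b at -0.44 ± 0.14 (adjusted p = 0.0836). DESeq2 called both and limma-voom Lrrn4. Fibroblast markers gave 6 of 11 above 0 in females, with a median of 0.06, and 2 of 11 without male CKD replicate 4 and female control replicate 2, with a median of -0.18. The part of these cells in the sex differences was not tested, and in whole tissue fewer cells of a type and less RNA per cell cannot be told apart.

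Of the regulators listed, Socs3 and Cebpd, both STAT3 targets, were lower in females, at -1.02 (adjusted p = 0.0734) and -1.19 (adjusted p = 0.0868), neither called by edgeR and both called by DESeq2 and limma-voom. Relb gave -0.91 and Lifr 0.34 (both adjusted p = 0.0665). Over the 25 testable genes of that list 1 was higher and 7 lower at an unadjusted p under 0.05, beside 25.2% of all genes. The median was -0.09. Of the 33 complement genes edgeR called C7 alone, where it called 0.171% of all genes. DESeq2 and limma-voom each called C4a, C4b, C7 and Cr1l, where they called 9.03% and 16.6% of all genes.

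Within groups, 4 of the 9 genes stood higher in libraries with 1 value of the number that follows the letter C in the sample titles, by differences that edgeR did not call. The meaning of that number is not given in the labels. It was 6 in 10 libraries, 5 of them CKD, and 2, 3 or 5 in the other 6, and 5 of those 6 carried the library numbers 12 to 16 in the table of counts. In a fit added after the data were seen, with the 4 groups as terms, Serpina3n was 1.83 ± 0.30 higher on the log2 scale with number 6 (adjusted p = 0.0662). Lcn2 gave 1.86 ± 0.54 (adjusted p = 0.157), S100a9 1.28 ± 0.32 (adjusted p = 0.133) and S100a8 1.23 ± 0.25 (adjusted p = 0.0783). edgeR called no gene at all, a share of 0%, and 16.3% of genes had an unadjusted p under 0.05, these 4 members among them. DESeq2 called the 4, and limma-voom called all of them but Lcn2, where the tools called 1.64% and 1.45% of genes.

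For Serpina3n, S100a8 and S100a9, every library of number 6 was above every other library in each of the 4 groups, an order that 196 genes or 1.2% of those tested showed. Lcn2 did so in 3 of 4 groups. The spread inside a group is plain in female controls, where number 6 gave 19.0, 15.2 and 8.28 CPM of Serpina3n and the library of number 2 gave 2.36. With male controls, S100a9 was at 5.21 and 9.30 CPM with number 6 and at 3.24 and 1.13 CPM with the others. C3, C4b, C7, Serping1 and Hp gave between -0.34 and 0.33, with unadjusted p of 0.209 or more. Of the 15 testable acute phase genes, which include Serpina3n and Lcn2, 5 were higher and 1 lower at an unadjusted p under 0.05, none of them called by edgeR. Of the 7 testable neutrophil markers, which include 3 of these members, 5 were higher, among them Cxcr2 at 0.99 (adjusted p = 0.253) and Csf3r at 0.62 (adjusted p = 0.279). The summed level of the 22 other neutrophil markers was 35.2 to 49.5 CPM with number 6 and 23.5 to 52.6 CPM with the rest. Csf3r and Cxcr2 made up little of that sum, with means of 2.28 and 0.67 CPM over all 16 libraries. Medians of the summed markers of other cells were also unlike by this number, and these sums were not tested. The summed atrial cardiomyocyte markers had a median of 313 CPM with number 6 and 580 with the rest, hepatocyte markers 9.69 and 5.83 CPM, and fibroblast markers 1964 and 2184 CPM. The ranges overlapped for each, and the part of these cells was not tested. Among libraries of number 6 alone, the CKD difference was 0.79 for Serpina3n (adjusted p = 0.214), close to 0.83 over all libraries, and the female difference of C7 was -2.48 (adjusted p = 0.006).

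Across the 16 libraries 36 pairs of members were correlated on log2 CPM, and r was positive for 34. The partners of calprotectin, S100a8 and S100a9 from the S100 cluster of chromosome 3 gave the highest value. Pearson's r was 0.93 and Spearman's rho 0.95, each with an adjusted permutation p of 0.00036, from the smallest p that 100000 resamples can give. Without the 2 libraries farthest from the median S100a8, r was 0.94. It was 0.98 in males, 0.89 in females, 0.88 after centring on the group means, 0.94 with number 6 and 0.97 with the other numbers.

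C3 and Serping1 gave r = 0.67 and rho = 0.72 (adjusted permutation p = 0.012 and 0.028), r being 0.89 in males, 0.42 in females and 0.69 without the 2 farthest libraries. Serping1 and Serpina3n gave r = 0.65 and rho = 0.66 (adjusted permutation p = 0.033 and 0.065), and 0.54 without the 2 farthest. C4b and C7 gave r = 0.74 and rho = 0.81 (adjusted permutation p = 0.011 and 0.0061). Since males and females form separate clusters for C7, the values within a sex are the ones to read, 0.56 in 8 males and 0.44 in 8 females. Male CKD replicate 4 was the lowest male for both genes, at 12.9 CPM of C4b and 0.66 CPM of C7. The r within males was not computed without it, so that value may rest on 1 library. Over both sexes, the r of C4b and C7 without the 2 libraries farthest from the median C4b was 0.77.

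**Figure D5:**
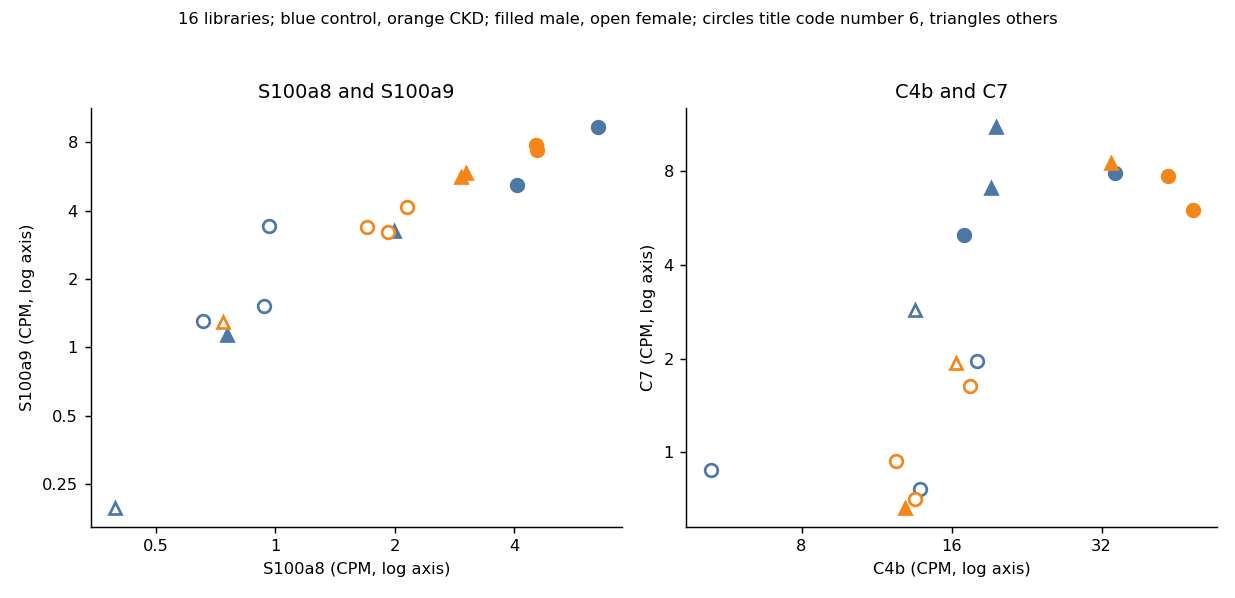
Level in CPM of S100a9 against S100a8 (left) and of C7 against C4b (right) in the 16 libraries, both axes on a log scale; blue control, orange CKD, filled male, open female, circles title code number 6, triangles other numbers. S100a8 and S100a9 lie along 1 line (r = 0.93), whereas C7 falls into a male and a female cluster, with male CKD replicate 4 at 0.66 CPM among the females.

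The genes whose pattern over the 16 libraries was closest to each member are given as a description, by Pearson's r of log2 CPM. C4b was nearest to its copy C4a (0.94) and to Cdh22 (0.90), and C7 to Ntn4 (0.94) and Igfbp4 (0.93). Serping1 was nearest to Clec10a (0.95) and Steap4 (0.92), and C3 less closely to Epha1 and Bmper (both 0.75). Serpina3n was nearest to Apod and Ing5 (0.89 and 0.88), Hp to Zfhx4 and Gng2 (both 0.81), and Lcn2 to Hmgcs1 and Plekha5 (0.90 and 0.85). Beside S100a9, S100a8 was nearest to Cxcr2 (0.81).

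Libraries that stood apart touch several of these values. Male CKD replicate 4 held the least fibroblast marker signal of the series, 526 CPM summed over 11 genes against at least 1403 CPM in every other library, and the lowest C3, C7 and Serping1. Female control replicate 2 held the lowest C4b and the highest Lcn2. Without both, the CKD difference was 1.1 for Serpina3n (adjusted p = 0.186). At an unadjusted p under 0.05 there were then 3 members in CKD, beside 17.5% of all genes, and none was called, where 0.133% of genes were. In females against males C7 and C4b were called, where 0.187% of genes were. All 11 fibroblast markers were below 0 in CKD with all libraries in, the median being -0.44, and 9 of 11 without both, at -0.33. Their part in the members' values was not tested.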

How the data were processed

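The deposited table holds raw read counts per gene for 16 mouse ventricle libraries (50-base paired-end reads). Per the submitters' processing notes the authors used FastQC, MultiQC, STAR 2.6.1d, featureCounts of Subread 1.6.3, DESeq2 1.30.1 and build mm10; no source used here gives the annotation release, the strand setting or the treatment of multi-mapping reads, so reads of near-identical copies may be split or lost. Of 33399 gene identifiers 33367 matched GENCODE M21.

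Counts were tested with edgeR 4.0.16 (R 4.3.3) by its quasi-likelihood test on TMM sizes after filterByExpr (minimum count 10, total 15), with Benjamini-Hochberg adjustment over 16400 genes. CKD over both sexes and sex over both diets came from a fit with sex and diet as terms. Comparisons within a sex or diet, and the sex difference of the CKD effect, came from a fit of the 4 sex-by-diet groups. The title code number was added to those groups in a further fit. Every p-value given for a gene is from these fits, unless another setting, DESeq2 1.42.0 or limma-voom (limma 3.58.1) is named. Correlations used permutation tests. Calls were checked on simulated data. Depth was 10203707 to 13626039 counts. The study's design text counts as many mice as there are libraries. The sample labels alone do not state that each library is a different animal. The p-values measure the spread between these libraries.

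The genes and lists were chosen with earlier results of these data known. All 9 genes are named, and of each list those called, otherwise the 3 lowest p values, and the most abundant gene per kilobase of each role, except that some are not reported here; further genes (C4a, the markers and those of the sex and title number comparisons) were picked after their values were seen. The comparison of sexes over both diets, that of the title code number, and list counts without 2 libraries were added after seeing the data. Alternatives were other scalings, filters, tools and designs, and leaving out libraries. Upstream sequences are from RefSeq (GRCm38.p6).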

Additional observations from a re-analysis of the deposited data

Results flagged for a closer look

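One value stood far from the rest of its group. C4b in male control replicate 2 was at 34.0 CPM, while the other 3 male controls lay between 17.0 and 19.6 CPM, so that the gap to the nearest took 0.845 of the group's range. This was 1 of 36 groups of 4 libraries examined, and chance alone gives such a gap in about 1 of 20 groups. The same library had the highest S100a8 and S100a9 of the series, at 6.49 and 9.30 CPM.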

How the results depend on the processing

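The CKD difference of each of the 9 genes stayed uncalled under every alternative run. No scaling moved the median of all genes by over 0.1 on the log2 scale. The C7 call between the sexes was lost, as given above, with the title code number as a factor and without each of 9 single libraries; its direction held under all of them. The low counts of S100a8, S100a9, C7, Hp and, in places, Lcn2 limit what these depths can show. No paired analysis was possible because the labels number no replicates; the title code number, which recurs between groups and whose meaning is not given, was fitted as a factor.

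Counts of genes called moved by over 1.5 times under some settings, and the cause was not tested. Genes higher in CKD in both sexes numbered 7, and 224 with DESeq2, 121 with limma-voom, 24 with no filter on low counts, 150 with the title code number as a factor, 3 with libraries of title code number 6 alone, 13 with male CKD 4 and female control 2 left out, 16 with GC and length trends removed and 4 to 17 with 1 library left out. Genes lower in CKD in both sexes numbered 7, and 174 with DESeq2, 78 with limma-voom, 29 with no filter on low counts, 84 with the title code number as a factor, 11 with GC and length trends removed, 4 with no sex term and 2 to 26 with 1 library left out. Genes higher in CKD in males numbered 0, and 6 with DESeq2. Genes lower in CKD in males numbered 0, and 6 with DESeq2, 1 with no filter on low counts and 0 to 1 with 1 library left out. Genes higher in CKD in females numbered 4, and 16 with DESeq2, 27 with limma-voom, 2 with libraries of title code number 6 alone, 0 with only the groups compared in the fit and 0 to 6 with 1 library left out. Genes lower in CKD in females numbered 5, and 16 with DESeq2, 28 with limma-voom, 3 with upper-quartile scaling, 1 with libraries of title code number 6 alone, 0 with only the groups compared in the fit and 0 to 7 with 1 library left out. Genes higher in females against males among controls numbered 2, and 5 with DESeq2, 4 with limma-voom, 4 with the title code number as a factor, 1 with only the groups compared in the fit and 2 to 4 with 1 library left out. Genes lower in females against males among controls numbered 4, and 7 with DESeq2. Genes higher in females against males with CKD numbered 3, and 12 with DESeq2, 389 with limma-voom, 5 with the title code number as a factor, 5 with libraries of title code number 6 alone and 5 with male CKD 4 and female control 2 left out. Genes lower in females against males with CKD numbered 4, and 47 with DESeq2, 1165 with limma-voom and 10 with male CKD 4 and female control 2 left out. Genes higher in females against males over both diets numbered 8, and 370 with DESeq2, 589 with limma-voom, 14 with upper-quartile scaling, 39 with no filter on low counts, 4 with GC and length trends removed and 4 to 135 with 1 library left out. Genes lower in females against males over both diets numbered 20, and 1111 with DESeq2, 2128 with limma-voom, 34 with upper-quartile scaling, 577 with no filter on low counts, 8 with the title code number as a factor, 10 with libraries of title code number 6 alone, 8 with GC and length trends removed and 4 to 1326 with 1 library left out. Genes higher in title code number 6 against the others numbered 0, and 187 with DESeq2, 110 with limma-voom, 426 with no filter on low counts, 8 with male CKD 4 and female control 2 left out, 16 with GC and length trends removed and 0 to 95 with 1 library left out. Genes lower in title code number 6 against the others numbered 0, and 82 with DESeq2, 128 with limma-voom, 654 with no filter on low counts, 37 with male CKD 4 and female control 2 left out, 22 with GC and length trends removed and 0 to 43 with 1 library left out.

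Small log2 differences of uncalled genes changed sign, and the cause was not tested. With limma-voom the values were, for CKD in males 0.006 for C7 and 0.24 for Serping1, and for the sex difference of the CKD effect -0.15 for C7 and -0.11 for Serping1, and for females against males with CKD -0.14 for C3 and -0.16 for Serping1. With upper-quartile scaling the values were, for females against males among controls 0.012 for Serpina3n. With mitochondrial genes left out the values were, for females against males with CKD -0.0126 for C3. With no filter on low counts the values were, for females against males among controls 0.0122 for Serpina3n. With a filter of 1 CPM in 8 libraries the values were, for females against males with CKD -0.0001 for C3. With the title code number as a factor the values were, for CKD in both sexes -0.0174 for Serping1, and for CKD in males -0.0302 for C3 and -0.44 for Hp, and for the sex difference of the CKD effect 0.35 for Serpina3n, and for females against males with CKD -0.0328 for C3 and 0.55 for Hp, and for females against males over both diets 0.0377 for Hp. With libraries of title code number 6 alone the values were, for CKD in both sexes 0.001 for C7, and for CKD in males 0.10 for C7, 0.31 for Serping1, -0.25 for Hp, -0.11 for Lcn2 and -0.20 for S100a8, and for the sex difference of the CKD effect -0.24 for C7 and -0.19 for Serping1, and for females against males with CKD -0.21 for C3, -0.20 for Serping1 and 0.20 for Hp. With male CKD 4 and female control 2 left out the values were, for CKD in males 0.18 for Serping1, and for CKD in females -0.0403 for C4b, and for the sex difference of the CKD effect -0.43 for C7 and -0.009 for Serping1, and for females against males with CKD -0.20 for C3 and -0.23 for Serping1. With GC and length trends removed the values were, for females against males with CKD 0.19 for Hp, and for females against males over both diets 0.0276 for C3, and for title code number 6 against the others 0.0764 for Hp. With 1 library left out at a time, some values crossed 0. The range was, for CKD in both sexes -0.013 to 0.16 for Serping1. The ranges were, for CKD in males -0.0454 to 0.23 for C3, -0.39 to 0.31 for Hp, -0.15 to 0.69 for S100a8 and -0.19 to 0.21 for Serping1. The ranges were, for CKD in females -0.0187 to 0.43 for C4b and -0.52 to 0.0821 for C7. The ranges were, for the sex difference of the CKD effect -0.25 to 0.51 for C7, -0.17 to 1.06 for S100a9, -0.61 to 0.18 for Serpina3n and -0.0838 to 0.34 for Serping1. The range was, for females against males among controls -0.40 to 0.38 for Serpina3n. The ranges were, for females against males with CKD -0.16 to 0.14 for C3, -0.26 to 0.39 for Hp, -0.57 to 0.14 for Serpina3n and -0.20 to 0.18 for Serping1. The ranges were, for females against males over both diets -0.30 to 0.0545 for Serpina3n and -0.15 to 0.0005 for Serping1. The range was, for title code number 6 against the others -0.26 to 0.21 for Hp.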
